A study of Homo sapiens with 18 samples.

Results

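The levels of 10 genes of the cytosolic and mitochondrial heat shock protein families were followed across 6 groups of breast cancer spheroids: HSPA1A, HSPA1B, HSPA8, HSPH1, DNAJB1, HSP90AA1, HSP90AB1, HSPB1, HSPD1 and HSPE1. They were taken by symbol from a table of 62710 genes, and all 10 of the 10 were among the 17030 genes with enough counts to test. The cells were MDA-MB-231, an established line of triple-negative breast cancer. Control spheroids (genotype Wildtype in the labels) and spheroids of cells labelled MMP14-KO, here called targeted, were each sampled in 3 states, with 3 libraries per group and 18 in all. The droplet groups were spheroids formed for 5 days in hanging droplets from 2000 cells each, and the other groups had then spent 24 h or 48 h inside a collagen hydrogel. Each sample held 100000 cells, and polyadenylated RNA was read as pairs of 151 bases. To free the spheroids, collagen samples were digested at 37 °C with 2 mg/ml collagenase, and droplets were not, so matrix, medium, time and digestion changed together and cannot be told apart. MMP14 encodes a membrane-bound metalloproteinase that cleaves collagen. The labels do not say whether the targeted cells are 1 clone or a pool, so the edit and any further difference between the 2 cell populations cannot be told apart. They also do not say whether replicates are separate cultures, and p-values then measure the spread between these libraries, which may be technical.

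Heat shock proteins are molecular chaperones that bind unfolded or partly folded proteins and help them reach or regain their shape. HSP70 proteins hold short unfolded stretches, J-domain proteins bring clients to them, HSP110 proteins release the spent nucleotide so that the cycle can restart, and HSP90 proteins finish the folding of kinases, receptors and other clients. Inside mitochondria, HSPD1 forms the folding chamber that HSPE1 closes as a lid. Many of these genes are induced through the transcription factor HSF1, which binds repeats of the short unit nGAAn in their promoters, and tumour cells often hold them at high levels without heat.

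The promoters of the 10 genes are shown first because this repeat is what most of them share in sequence. RefSeq promoter windows of GRCh38.p14, running from 250 bases before to 50 bases after a transcription start and so 300 bases long, matched all 10 genes with 16 windows. Facing pairs of the unit were searched as GAANNTTC and TTCNNGAA, each of which reads the same on both strands, and 3 units in a row were counted where the pairs overlap. At least 1 pair was in 9 of the 16 windows (56.2%), belonging to 8 of the 10 genes, against 4737 of 35116 windows (13.5%) in the whole table. A run of 3 units was in 4 of the 16 windows, against 172 of all windows (0.49%). The windows of HSPH1 and HSPE1 held no pair, which says only that these letters are not in them. The stretches below are read 5′ to 3′ on the gene's strand, with the matched units in capitals. The HSPA1A and HSPA1B stretches show how alike the promoters of this gene pair are. Those of HSPA8, HSP90AA1, HSP90AB1 and HSPD1 carry at least 3 units in a row, with 2 overlapping runs of 3 in HSPD1. Those of DNAJB1 and HSPB1 carry a single pair.
HSPA1A: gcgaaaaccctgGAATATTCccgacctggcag
HSPA1B: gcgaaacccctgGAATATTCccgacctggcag
HSPA8: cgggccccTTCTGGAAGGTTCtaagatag
HSP90AA1: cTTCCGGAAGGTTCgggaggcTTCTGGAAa
HSP90AB1: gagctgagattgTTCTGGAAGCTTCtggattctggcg
HSPD1: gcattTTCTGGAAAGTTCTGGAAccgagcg
DNAJB1: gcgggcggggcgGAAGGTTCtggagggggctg
HSPB1: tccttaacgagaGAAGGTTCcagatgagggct
The HSPA1A stretch lies at chr6:31815425-31815456 on the plus strand and the HSPA1B stretch at chr6:31827621-31827652 on the plus strand, both between annotated genes. The HSPA8 stretch lies at chr11:123062171-123062199 on the minus strand in an annotated HSPA8 exon, and the HSP90AA1 stretch at chr14:102087104-102087133 on the minus strand in an annotated HSP90AA1 exon. The HSP90AB1 stretch lies at chr6:44247819-44247855 on the plus strand in an intron of a longer HSP90AB1 transcript. The HSPD1 stretch lies at chr2:197500061-197500090 on the minus strand, where exons of HSPD1 and HSPE1 overlap head to head. The DNAJB1 stretch lies at chr19:14518455-14518486 on the minus strand, within introns of DNAJB1 and TECR, and the HSPB1 stretch at chr7:76302479-76302510 on the plus strand between genes. A match is a description of letters and not evidence that a factor was bound in these spheroids.

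Totals ran from 19819401 to 33352163 counts per library, and the lowest count of any of the 10 genes in any library was 1198. MMP14 was at 1284 to 2249.7 CPM (counts scaled to a common library size with TMM factors) in the 9 control libraries and at 137.9 to 165.6 CPM in the 9 targeted libraries, so every library matched its genotype label. Mesenchymal markers of the line were abundant, with VIM at 1929.7 to 3834.5 CPM, and ESR1, PGR, FOXA1 and CDH1 stayed under 1 CPM, while the other 3 of 7 markers listed as low for this line were not: KRT8 was at 441.4 to 546.1 CPM, ERBB2 at 65.2 to 78.7 CPM and GATA3 at 6.74 to 10.6 CPM. Of the leukocyte markers listed, CD3E, a T cell marker, was at 0 in all 18 libraries. On the same list CD14 was at 7.34 to 29.5 CPM and LYZ at 2.21 to 14.1 CPM. Among the endothelial markers PECAM1 was at 8.1 to 34.1 CPM and KDR at 4.07 to 8.9 CPM. Summed over 6 leukocyte markers the level was 30.3 to 44.3 CPM in droplets and 10.1 to 19.4 CPM in collagen, and over 6 endothelial markers it was 33.6 to 41.9 CPM in droplets and 16.8 to 35.7 CPM in collagen. Over 6 mesenchymal markers of the line the sum was 3719.8 to 4387.6 CPM in droplets and 6089 to 7042.3 CPM in collagen, and over 7 fibroblast markers it was 56.2 to 59.4 CPM in targeted spheroids at 24 h and 33.1 to 53.6 CPM in the other groups. The part of these differences in the results was not tested. The labels name no other cell type than this breast cancer line. In bulk samples, fewer cells expressing a gene and less of its RNA per cell cannot be told apart.

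Together the 10 genes took 0.695% ± 0.0129 (SD, n = 3) of all counts in control droplets, 0.904% ± 0.037 in control spheroids after 24 h in collagen and 0.822% ± 0.0536 after 48 h. In targeted spheroids the shares were 0.714% ± 0.0101, 0.941% ± 0.019 and 0.832% ± 0.0395. Both genotypes were highest at 24 h. The sum is dominated by HSP90AB1, HSPA8 and HSP90AA1. Scaled to the length of each gene's annotated exons, HSP90AB1 had the highest value in every group. In control droplets it was at 668.7 ± 13.4 CPM per kilobase, followed by HSPA8 at 407.1 ± 10.8 and HSP90AA1 at 272.3 ± 10.5. The length joins the exons of all annotated transcripts, 2980 bases for HSP90AB1 and 4849 for HSPA8. Transcripts in use may be shorter, so the order between genes depends on this choice. Before scaling, HSP90AB1 was at 1992.6 and HSPA8 at 1973.9 CPM in control droplets. The other 7 genes lay between 31.5 ± 2.76 (HSPE1) and 111.0 ± 8.98 (HSPA1B) CPM per kilobase in that group.

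**Figure D1:**
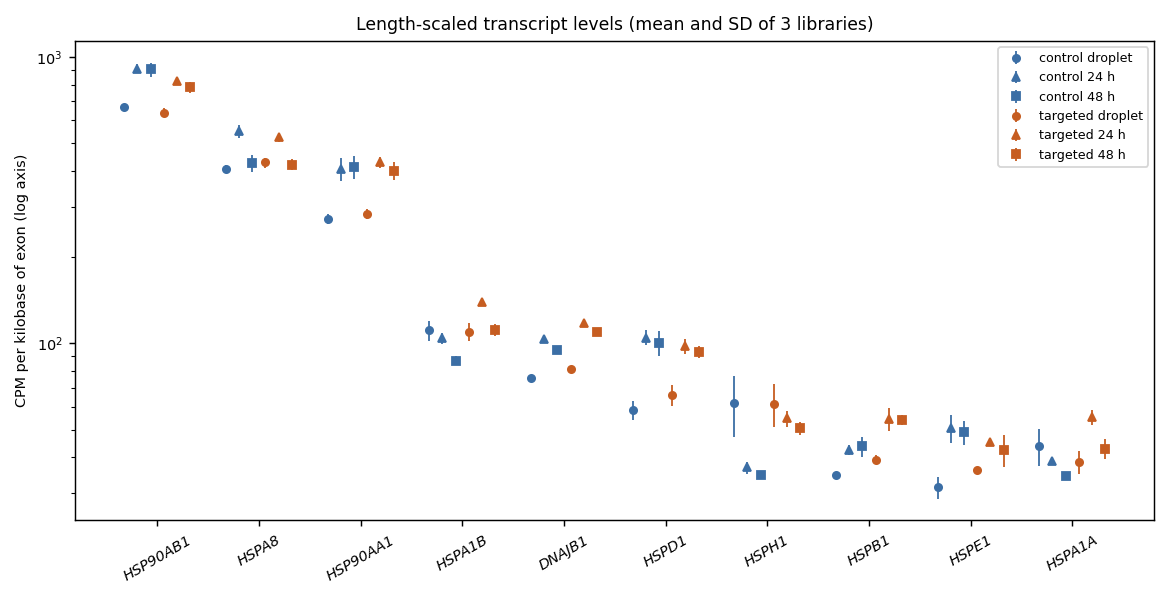
Mean CPM per kilobase of annotated exon on a log axis for the 10 genes, with bars of 1 SD over 3 libraries, in 6 groups (blue, control; orange, targeted; circles, droplets; triangles, 24 h; squares, 48 h). HSP90AB1, HSPA8 and HSP90AA1 stand above the other 7 genes in all groups, and HSPH1 in droplets has the widest bars.

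The first question is what 24 h and 48 h in collagen did to these transcripts in each genotype. In control spheroids 7 of the 10 genes rose by 24 h (HSPA8, DNAJB1, HSP90AA1, HSP90AB1, HSPB1, HSPD1 and HSPE1) and HSPH1 fell, against 27.8% of all tested genes higher and 28.7% lower. By 48 h 6 of the 10 were above droplets and 3 (HSPA1A, HSPA1B and HSPH1) were below, against 27.7% and 27.5% of all genes. In targeted spheroids 9 of the 10 rose by 24 h, every gene but HSPH1, and none fell, against 25.5% and 25.7% of all genes. By 48 h 6 of the 10 were above targeted droplets and none below, against 25.8% and 23.6% of all genes. The median log2 fold change of the 10 genes at 24 h was 0.44 in control and 0.42 in targeted spheroids, where the median of all tested genes was -0.0035 and -0.00097. At 48 h it was 0.33 and 0.26, against 0.0048 and 0.021. Between 24 h and 48 h no member rose in either genotype. HSPA1B and HSPA8 fell in control spheroids, where 6.32% of all genes were higher and 6.88% lower at 48 h, and HSPA1A, HSPA1B and HSPA8 fell in targeted spheroids, where 2.07% were higher and 1.73% lower. Calls are edgeR quasi-likelihood tests over all 17030 genes with Benjamini-Hochberg adjusted p under 0.05.

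Immediate-early genes, which respond within minutes to stress, growth factors and the dissociation of tissue, moved with the collagen groups. Of 12, 11 rose in each of the 4 comparisons of collagen with droplets, and 1 fell in control spheroids at 48 h. The median log2 fold change was 2.71 in control and 2.64 in targeted spheroids at 24 h. FOS went from 6.46 ± 0.996 CPM in control droplets to 929.3 ± 95.3 CPM at 24 h. The part of the digestion in the heat shock protein values was not tested.

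The second question is how targeted and control spheroids differed in the same state. In droplets none of the 10 genes was called, against 7.7% of all genes higher and 9.7% lower in targeted spheroids. An unadjusted p under 0.05 was found for 4 of the 10, against 5014 of the 17030 tested genes. DESeq2 called 1 of the 10, DNAJB1, as higher, against 1314 of all genes higher and 1594 lower. At 24 h in collagen 5 were higher (HSPA1A, HSPA1B, HSPH1, DNAJB1 and HSPB1) and HSP90AB1 was lower, against 13.7% and 15.7% of all genes. The same 5 genes were higher and HSP90AB1 lower at 48 h, against 14.4% and 15.1%; both comparisons are of targeted with control spheroids in separate libraries. Scaled by library size alone, the genes called at 24 h split into 3084 higher and 1901 lower, in place of 2328 and 2682, and at 48 h into 3144 and 1745, in place of 2458 and 2571. The median of the 10 log2 fold changes was 0.06 in droplets, 0.13 at 24 h and 0.1 at 48 h, with all tested genes at -0.0013, 0.0049 and 0.00084.

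The third question is whether the change from droplets to collagen differed between genotypes, which is the difference of the 2 log2 fold changes, targeted minus control. HSPA1A and HSPA1B had a difference above 0 at 24 h and again at 48 h, and no other member passed the edgeR test; DESeq2 called these and HSPE1, with a difference below 0, at both times. Over all genes DESeq2 called 1763 in either direction at 24 h and 1739 at 48 h. The edgeR test called 1262 (7.41%) at 24 h and 1156 (6.79%) at 48 h. Scaled by library size alone, the genes called at 24 h split into 733 with a difference above 0 and 509 below, in place of 565 and 697, and at 48 h into 862 and 304, in place of 682 and 474. For the change from 24 h to 48 h no member and 0% of all genes were called in the edgeR test; 0 of the 10 members and 1107 of all genes had an unadjusted p under 0.05, and DESeq2 called 5 genes, with no member among them. The 2 comparisons with droplets share the droplet libraries and are not independent of each other.

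**Figure D2:**
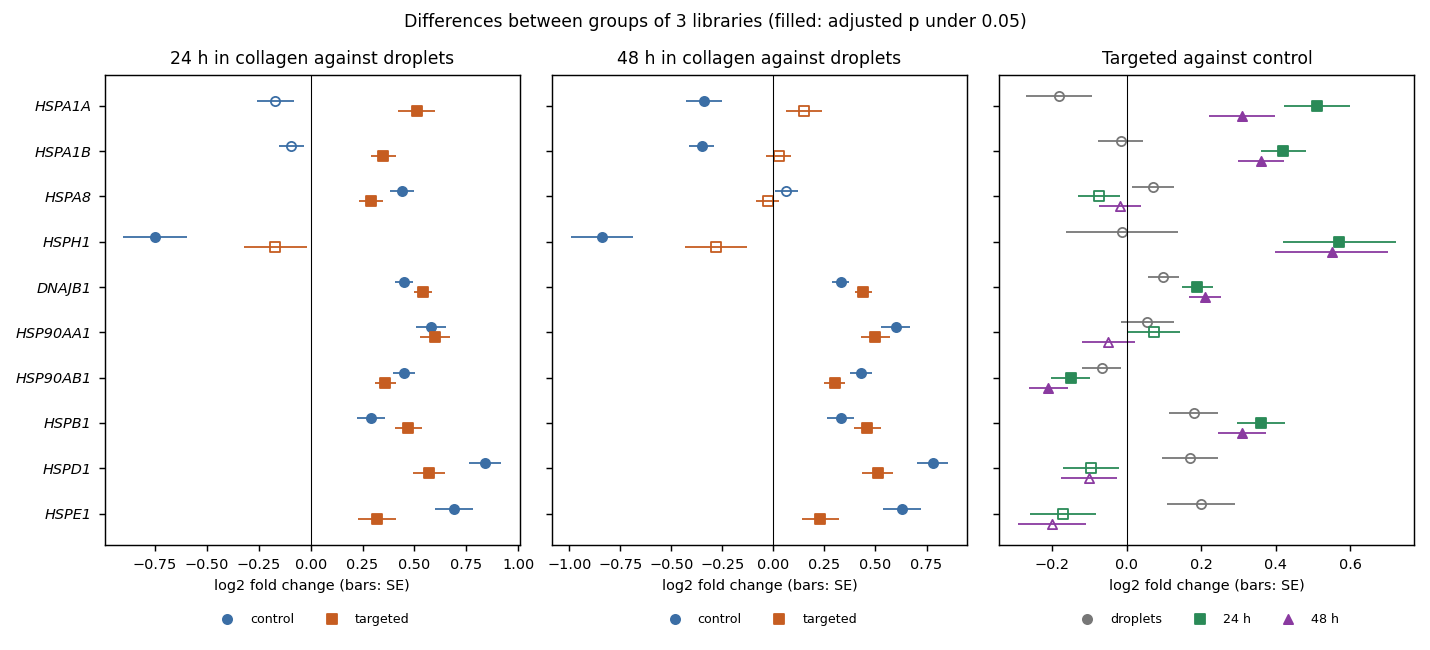
Log2 fold changes of the 10 genes with bars of 1 SE: collagen against droplets at 24 h (left) and 48 h (middle) in control (blue circles) and targeted (orange squares) spheroids, and targeted against control (right) in droplets, at 24 h and at 48 h; filled symbols passed the test. HSPA1A at 24 h lies at -0.17 in control and 0.51 in targeted spheroids, while HSPD1 lies at 0.84 and 0.57.

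HSPA1A (chr6:31815464-31817946) and HSPA1B (chr6:31827735-31830255) are the stress-inducible HSP70 genes and encode the same kind of cytosolic chaperone. Of the stretches of 151 bases in their annotated transcripts, 63.2% of those of HSPA1A and 70.0% of those of HSPA1B also occur in another gene, chiefly each other, so the split of reads between them is uncertain and their sum is given too. HSPA1A was at 123, 112 and 91.3 CPM in control droplets, 96.2, 99.4 and 93.2 CPM at 24 h, and 85.3, 88.8 and 83 CPM at 48 h. Its targeted values were 94.6, 105.4 and 87.9 CPM in droplets, 146, 128.8 and 136.3 CPM at 24 h, and 112.5, 96.8 and 110 CPM at 48 h. All 3 targeted libraries at 24 h were above the other 15 libraries, and the control libraries at 48 h were below the rest except for 1 targeted droplet library. HSPA1B was at 300.3, 283.6 and 255.5 CPM in control droplets, 266.9, 270.8 and 248.8 CPM at 24 h, and 212.6, 227.7 and 216.8 CPM at 48 h. In targeted spheroids HSPA1B was at 289.9, 285.8 and 254.1 CPM in droplets, 360.3, 346.8 and 346.9 CPM at 24 h, and 292.3, 267.2 and 284.6 CPM at 48 h. The targeted libraries at 24 h were again above all others, and the control libraries at 48 h below all others.

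In targeted spheroids at 24 h HSPA1A rose 1.43-fold over droplets (log2 fold change 0.51, SE 0.0879, adjusted p 8.13e-05) and HSPA1B 1.27-fold (0.35, SE 0.0606, adjusted p 6.05e-05). In control spheroids the same values were -0.17 (SE 0.0882, adjusted p 0.1) and -0.094 (SE 0.0607, adjusted p 0.198), which missed the threshold. Without control droplet replicate 3 they were -0.28 (adjusted p 0.00333) and -0.15 (adjusted p 0.049), and HSPA1A also passed with no filter on low counts (-0.17, adjusted p 0.0323). The difference between the genotypes was 0.69 for HSPA1A (SE 0.124, adjusted p 0.00509) and 0.44 for HSPA1B (SE 0.0858, adjusted p 0.00606). For the summed row it was 0.51 (SE 0.0927, adjusted p 0.00404). Leaving out each of the 18 libraries in turn kept both calls at 24 h. By 48 h HSPA1A had fallen to 0.789 of its droplet level in control spheroids (log2 fold change -0.34, adjusted p 0.00299) and HSPA1B to 0.783 (-0.35, adjusted p 3.76e-05), whereas the targeted values were 0.15 (adjusted p 0.17) and 0.025 (adjusted p 0.758). The difference at 48 h was 0.49 for HSPA1A (SE 0.125, adjusted p 0.0279), 0.38 for HSPA1B (SE 0.086, adjusted p 0.0149) and 0.41 for the sum (adjusted p 0.0148).

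The calls at 48 h rest on few libraries. Without control droplet replicate 1 the adjusted p at 48 h was 0.0804 for HSPA1A and 0.0593 for HSPA1B, and without targeted droplet replicate 3 it was 0.0777 and 0.0554. HSPA1A alone also lost the call without control droplet replicate 2 (0.0669), targeted droplet replicate 1 (0.0574), control 48 h replicate 3 (0.0811), targeted 48 h replicate 1 (0.0587) or targeted 48 h replicate 3 (0.051). Set directly against control spheroids, targeted spheroids held 1.42 times the HSPA1A level at 24 h (log2 fold change 0.51, adjusted p 0.000306) and 1.24 times at 48 h (0.31, adjusted p 0.0131), and in droplets 0.883 times (-0.18, adjusted p 0.185). Without control droplet replicate 3 the droplet difference of HSPA1A was -0.28 (adjusted p 0.0116). At 48 h that HSPA1A call was lost without control 48 h replicate 3 (adjusted p 0.0534) or targeted 48 h replicate 1 (0.0605). HSPA1B was 1.34 times the control level at 24 h (0.42, adjusted p 2.56e-05) and 1.28 times at 48 h (0.36, adjusted p 0.00015), and in droplets the log2 difference was -0.016, with an interval of -0.15 to 0.12. From 24 h to 48 h HSPA1A fell by 0.36 on the log2 scale in targeted spheroids (adjusted p 0.0254), a call that was lost without targeted 24 h replicate 1 or 3 (0.0915 and 0.0625) and without targeted 48 h replicate 1 or 2 (0.0506 and 0.0631). HSPA1B fell by 0.32 in targeted (adjusted p 0.00304) and by 0.26 in control spheroids (adjusted p 0.00636).

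**Figure D3:**
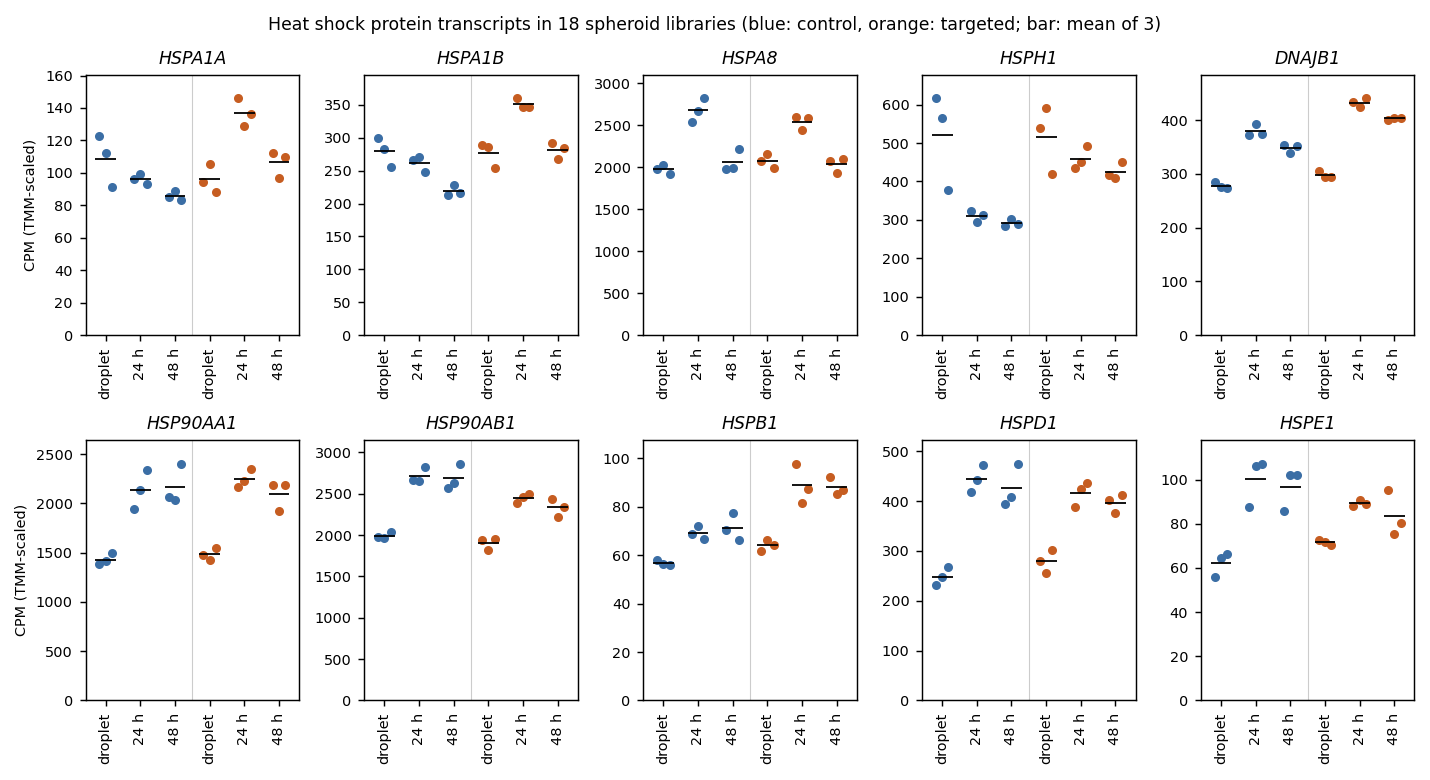
CPM in each of the 18 libraries for the 10 genes, with bars at the mean of 3 (blue, control; orange, targeted; each in the order droplet, 24 h and 48 h in collagen; linear axes from 0). HSPA1A and HSPA1B are highest in targeted spheroids at 24 h, HSPH1 is low in control spheroids in collagen, and HSP90AA1 and HSPD1 are low in the droplet libraries of both genotypes.

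HSPA8 (chr11:123057489-123063230) encodes the constitutive HSP70 of the cytosol. Genes of small nucleolar RNAs lie within it on the same strand. HSPA8 was at 1980.7, 2022.6 and 1918.3 CPM in control droplets, 2539.8, 2662.9 and 2819.8 CPM at 24 h, and 1977.5, 1986.5 and 2219.9 CPM at 48 h. Among targeted spheroids the level was 2070.6, 2161.1 and 1993.3 CPM in droplets, 2598.8, 2439.6 and 2582.1 CPM at 24 h, and 2077.2, 1934.3 and 2097.1 CPM at 48 h. The libraries at 24 h stood above those of droplets and of 48 h in both genotypes, and droplets and 48 h overlapped. HSPA8 rose 1.35-fold by 24 h in control (log2 fold change 0.44, SE 0.0567, adjusted p 8.29e-07) and 1.22-fold in targeted spheroids (0.29, SE 0.0567, adjusted p 0.00018). It then fell by 0.38 (adjusted p 0.000116) and 0.32 (adjusted p 0.00166) on the log2 scale from 24 h to 48 h. At 48 h its difference from droplets was 0.063 (interval -0.06 to 0.19) in control and -0.027 (interval -0.15 to 0.1) in targeted spheroids. The genotypes differed by -0.074 at 24 h (interval -0.2 to 0.05), which missed the threshold.

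HSPH1 (chr13:31134974-31162388) encodes HSP110, the nucleotide exchange partner of HSP70, and was the one member that fell in control spheroids by 24 h. It was at 616.6, 565.6 and 378.6 CPM in control droplets, 322.8, 293.2 and 312.1 CPM at 24 h, and 282.8, 301.1 and 290.1 CPM at 48 h. Targeted libraries held 539.6, 591.2 and 418.2 CPM in droplets, 434.5, 451.8 and 491.7 CPM at 24 h, and 417.9, 408.3 and 450.6 CPM at 48 h. The droplet library numbered 3 was the lowest of its group in both genotypes, and all control libraries in collagen were below every targeted library. In control spheroids HSPH1 fell to 0.595 of its droplet level by 24 h (log2 fold change -0.75, SE 0.152, adjusted p 0.000767) and to 0.56 by 48 h (-0.84, adjusted p 0.000336). In targeted spheroids the values were -0.17 (SE 0.15, adjusted p 0.378) and -0.28 (adjusted p 0.144). Targeted spheroids held 1.48 times the control level at 24 h (0.57, SE 0.151, adjusted p 0.0121) and 1.46 times at 48 h (0.55, SE 0.152, adjusted p 0.0156), and in droplets the difference was -0.011 with an interval of -0.34 to 0.32. The call at 48 h was lost without control 48 h replicate 3 (adjusted p 0.0511). The difference between genotypes in the change was 0.58 at 24 h (SE 0.213, adjusted p 0.115) and 0.56 at 48 h (SE 0.213, adjusted p 0.129), short of the threshold with all libraries. Without control droplet replicate 3 alone it was 0.75 (adjusted p 0.0033) and 0.73 (adjusted p 0.00492). Without both droplet libraries numbered 3, a choice made after seeing these values, it was 0.62 (adjusted p 0.000931) and 0.6 (adjusted p 0.00169), and HSPH1 then fell in targeted spheroids too, by 0.3 (adjusted p 0.000863) and 0.42 (adjusted p 3.35e-05). With targeted droplet replicate 3 alone left out, HSPH1 fell by 0.42 in targeted spheroids at 48 h (adjusted p 0.0273), and with control droplet replicate 3 alone left out by 0.29 (0.0155). With no filter on low counts the difference between genotypes passed at 24 h (0.58, adjusted p 1.62e-09) and 48 h (0.54, adjusted p 4.58e-08). In that setting the change of HSPH1 in targeted spheroids passed too, at -0.16 at 24 h (adjusted p 0.0265) and -0.29 at 48 h (adjusted p 1.11e-05).

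DNAJB1 (chr19:14514770-14529770) encodes HSP40, the J-domain protein that hands clients to cytosolic HSP70. It overlaps TECR on the opposite strand, and whether reads were counted by strand is not given in the sources used here. DNAJB1 was at 284.6, 275.3 and 274.2 CPM in control droplets, 371.6, 393.1 and 375 CPM at 24 h, and 353.4, 339.6 and 352 CPM at 48 h. The targeted level was 304.8, 293.4 and 295 CPM in droplets, 433, 424.4 and 440.8 CPM at 24 h, and 401.1, 404.9 and 403.9 CPM at 48 h. The 6 groups did not overlap at any step of their order, which ran from targeted 24 h, targeted 48 h, control 24 h and control 48 h down to targeted and control droplets. DNAJB1 rose 1.37-fold in control (log2 fold change 0.45, SE 0.0426, adjusted p 8.04e-09) and 1.45-fold in targeted spheroids by 24 h (0.54, SE 0.0425, adjusted p 9.44e-10). At 48 h it was still 1.25-fold and 1.35-fold above droplets (adjusted p 1.04e-06 and 2.55e-08). The log2 change from 24 h to 48 h was -0.13 in control (adjusted p 0.0543) and -0.1 in targeted spheroids (0.208), short of the edgeR threshold. In control spheroids it passed with DESeq2 size factors (0.0445), with library size alone (0.0269) and in 4 of 18 fits that each left out 1 library. The DESeq2 test called it in control (0.000812) and targeted spheroids (0.00931). Targeted spheroids were above control by 0.19 at 24 h (SE 0.0424, adjusted p 0.002) and 0.21 at 48 h (SE 0.0425, adjusted p 0.000807). In droplets the difference was 0.099 (adjusted p 0.119 in edgeR and 0.0138 in DESeq2), and the change to 24 h differed between genotypes by 0.089 with an interval of -0.04 to 0.22.

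HSP90AA1 (chr14:102080738-102139699) and HSP90AB1 (chr6:44246166-44253888) encode the inducible and the constitutive cytosolic HSP90; HSP90AA1 overlaps WDR20 on the opposite strand. HSP90AA1 was at 1385.7, 1410.2 and 1491.4 CPM in control droplets, 1943.7, 2131.2 and 2334.5 CPM at 24 h, and 2066.2, 2039.4 and 2404.8 CPM at 48 h. For targeted cells the values were 1480.9, 1428.9 and 1547.2 CPM in droplets, 2162.5, 2228.2 and 2352.3 CPM at 24 h, and 2184.7, 1923.7 and 2183.2 CPM at 48 h. All 6 droplet libraries were below all 12 collagen libraries, and the collagen groups overlapped each other. HSP90AA1 rose 1.49-fold in control (log2 fold change 0.58, SE 0.0712, adjusted p 3.84e-07) and 1.51-fold in targeted spheroids by 24 h (0.6, SE 0.0712, adjusted p 4.22e-07), and was 1.52-fold and 1.41-fold above droplets at 48 h (adjusted p 2.49e-07 and 5.37e-06). The difference between the genotypes in the change was 0.017 at 24 h, with an interval of -0.2 to 0.24.

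HSP90AB1 was at 1973.9, 1965.5 and 2038.4 CPM in control droplets, 2663, 2651.1 and 2824.5 CPM at 24 h, and 2573, 2636.5 and 2866.6 CPM at 48 h. In targeted spheroids it was at 1936.1, 1821.4 and 1948.8 CPM in droplets, 2386.8, 2458.5 and 2497.5 CPM at 24 h, and 2438.6, 2223.8 and 2340.9 CPM at 48 h. Droplets were again the lowest, and in each of the 3 states the targeted libraries lay below all 3 control libraries. HSP90AB1 rose 1.36-fold in control (log2 fold change 0.45, SE 0.0526, adjusted p 2.2e-07) and 1.29-fold in targeted spheroids by 24 h (0.36, SE 0.0525, adjusted p 5.47e-06), and stood 1.35-fold and 1.23-fold above droplets at 48 h. It was the one member called lower in targeted than in control spheroids in collagen, at -0.15 at 24 h (adjusted p 0.0367) and -0.21 at 48 h (SE 0.0525, adjusted p 0.00528). The call at 24 h was lost without any 1 of control 24 h replicates 2 and 3 (adjusted p 0.0577 and 0.178) and targeted 24 h replicates 1, 2 and 3 (0.127, 0.0818 and 0.0524), with scaling by library size alone (-0.095, adjusted p 0.162) and with no filter on low counts (0.0591). At 48 h the adjusted p was 0.0529 with only the compared groups in the fit. HSPE1, described below, was at -0.17 and -0.2 in the same comparisons and missed the threshold (adjusted p 0.169 and 0.099).

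HSPB1 (chr7:76302544-76304295) encodes HSP27, a small heat shock protein that holds unfolded proteins without ATP and binds actin filaments. It was at 58, 56.5 and 55.9 CPM in control droplets, 68.9, 72.2 and 66.6 CPM at 24 h, and 70.3, 77.5 and 66.3 CPM at 48 h. In targeted spheroids it was at 61.7, 66.3 and 64.4 CPM in droplets, 97.9, 81.4 and 87.2 CPM at 24 h, and 92.5, 85.5 and 86.8 CPM at 48 h. Targeted libraries lay above control libraries in each state. HSPB1 rose 1.22-fold by 24 h in control (log2 fold change 0.29, SE 0.0657, adjusted p 0.000779) and 1.38-fold in targeted spheroids (0.47, SE 0.0649, adjusted p 3.21e-06), with 48 h at 1.26-fold and 1.38-fold. Targeted spheroids were 1.28-fold above control at 24 h (0.36, adjusted p 0.000281) and 1.24-fold at 48 h (0.31, adjusted p 0.00126). In droplets the difference of 0.18 had an adjusted p of 0.0694, and it passed with library size alone (0.0462), with only the compared groups in the fit (0.022), and without targeted 24 h replicate 1 (0.0336) or 2 (0.0433) or control 48 h replicate 3 (0.0439). The change to 24 h differed between genotypes by 0.18, with an interval of -0.02 to 0.38.

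HSPD1 (chr2:197486581-197516737) and HSPE1 (chr2:197499994-197503457) encode the mitochondrial chaperonin HSP60 and its lid HSP10, and lie head to head on opposite strands. Their annotated exons overlap, and 3.3% of the HSPE1 stretches of 151 bases also occur in HSPD1. HSPD1 was at 230.8, 246.8 and 267.2 CPM in control droplets, 418.6, 442.2 and 473.4 CPM at 24 h, and 395.2, 407.9 and 475.6 CPM at 48 h. In targeted spheroids it was at 280.7, 255.5 and 302.3 CPM in droplets, 388, 424.4 and 436.2 CPM at 24 h, and 401.9, 376.5 and 413.2 CPM at 48 h. Every collagen library was above every droplet library. HSPD1 had the largest rise of the 10 genes in control spheroids, 1.79-fold at 24 h (log2 fold change 0.84, SE 0.0759, adjusted p 6.92e-09) and 1.72-fold at 48 h (0.78, adjusted p 2.49e-08), and in targeted spheroids it rose 1.49-fold and 1.42-fold (0.57 and 0.51, adjusted p 2.19e-06 and 1.16e-05). The difference between genotypes in the change was -0.27 at both times (adjusted p 0.129 at 24 h and 0.119 at 48 h), short of the threshold. It passed with no filter on low counts (adjusted p 0.0326 and 0.0157), and at 48 h without control droplet replicate 3 (0.0471). Targeted against control, HSPD1 was at 0.17 in droplets (edgeR adjusted p 0.134), -0.096 at 24 h (0.363) and -0.1 at 48 h (0.335), all short of the threshold. The droplet difference passed with no filter on low counts (0.0462) and without targeted droplet replicate 2 (0.0489).

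HSPE1 was at 56, 64.5 and 66.2 CPM in control droplets, 87.4, 106.1 and 107.3 CPM at 24 h, and 85.9, 101.9 and 101.9 CPM at 48 h. In targeted spheroids it was at 72.8, 71.7 and 70.3 CPM in droplets, 88.2, 90.6 and 89 CPM at 24 h, and 95.5, 75.3 and 80.4 CPM at 48 h. Droplet libraries were below collagen libraries in both genotypes, and the targeted droplets lay above the control droplets. HSPE1 rose 1.61-fold by 24 h in control (log2 fold change 0.69, SE 0.0907, adjusted p 2.82e-06) and 1.25-fold in targeted spheroids (0.32, SE 0.0903, adjusted p 0.00647). At 48 h it was 1.55-fold above droplets in control (adjusted p 8.77e-06) and 1.17-fold in targeted spheroids (0.23, adjusted p 0.0447). That last call was lost in 11 of the 18 fits that each left out 1 library, with adjusted p up to 0.259 without targeted 48 h replicate 1, and in DESeq2 (adjusted p 0.0603). The difference between genotypes in the change was -0.37 at 24 h (SE 0.128, adjusted p 0.0823) and -0.4 at 48 h (SE 0.128, adjusted p 0.0639). In DESeq2 it passed at both (adjusted p 0.0397 and 0.02), as it did with no filter on low counts (0.00222 and 0.00033). In edgeR it passed at 24 h without control droplet replicate 3 (0.0494), control 24 h replicate 1 (0.0134) or targeted 48 h replicate 1 (0.0492), and at 48 h without those or control 48 h replicate 1 (0.0263). Targeted against control, HSPE1 was at 0.2 in droplets (adjusted p 0.147), -0.17 at 24 h (0.169) and -0.2 at 48 h (0.099). These missed the edgeR threshold. In droplets it passed with no filter (0.0266) or only the compared groups (0.0345). At 24 h it passed without control 24 h replicate 1 (0.0308). At 48 h it passed with no filter (0.00799). It also passed without control 24 h replicate 1 (0.0495), control 48 h replicate 1 (0.0254) or targeted 48 h replicate 1 (0.0159).

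Across the 18 libraries the log2 levels of HSP90AA1 and HSPD1 had a Pearson correlation of 0.974, HSPA1A and HSPA1B of 0.937, and HSPD1 and HSPE1 of 0.918, while HSPH1 and HSP90AB1 had -0.805. These points share 6 groups, so the values describe a common order of groups and carry no test. Among 10927 genes considered, those most like HSPD1 included TCP1 (0.985), a subunit of the cytosolic chaperonin, STIP1 (0.984), which links HSP70 to HSP90, DDX21 (0.981) and BRIX1 (0.981). Those most like HSPA8 were NCS1 (0.92), SMARCA2 (0.912), SLC20A2 (0.901), WEE1 (0.899) and NPDC1 (0.896). Those most like HSPA1A, after HSPA1B, were LZTS3 (0.9), ADAMTS7 (0.899), SPACA6 (0.896) and RBCK1 (0.893).

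The partners of these chaperones were described by lists. At 24 h against droplets, 27.8% of all tested genes were higher and 28.7% lower in control spheroids, and 25.5% and 25.7% in targeted spheroids. All 8 subunits of the cytosolic chaperonin TRiC, which folds actin and tubulin, rose by 24 h in control spheroids and 6 of 8 in targeted spheroids, with median log2 fold changes of 0.4 and 0.22. TCP1 went from 203.3 ± 9.42 to 327.5 ± 27 CPM in control spheroids (log2 fold change 0.69, adjusted p 5.87e-09). In targeted against control spheroids at 24 h 5 of the 8 were lower and none higher, where 15.7% and 13.7% of all genes were, with CCT8 at -0.27 (adjusted p 0.0015). Of 6 prefoldin subunits, which deliver clients to TRiC, 2 rose in control spheroids, and 1 rose and 3 fell in targeted spheroids. Of 11 HSP90 co-chaperones, 6 rose and 1 fell in control spheroids and 5 rose and 2 fell in targeted spheroids at 24 h. FKBP4 rose by 0.64 and 0.57 (adjusted p 1.02e-08 and 9.57e-08), STIP1 by 0.51 and 0.44 (adjusted p 4.05e-08 and 4.96e-07) and CHORDC1 by 0.48 and 0.59 (adjusted p 2.73e-05 and 3.22e-06). FKBP5, a glucocorticoid-responsive co-chaperone, was lower in targeted than in control spheroids at 24 h, at 39.4 ± 0.496 against 61.7 ± 8.78 CPM (-0.65, adjusted p 5.56e-05).

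The counts of the next lists stand beside 27.8% of all genes higher and 28.7% lower at 24 h in control spheroids. In targeted spheroids these shares were 25.5% and 25.7%. Of 13 mitochondrial folding and protease genes, 10 rose and 1 fell in control spheroids at 24 h, and 6 rose and 2 fell in targeted spheroids. TRAP1, the mitochondrial HSP90, rose from 41.7 ± 2.59 to 89.7 ± 8.74 CPM in control spheroids (log2 fold change 1.1, adjusted p 1.16e-10) and by 0.69 in targeted spheroids (adjusted p 2.29e-07). HSPA9, the mitochondrial HSP70, rose by 0.66 and 0.49 (adjusted p 2.48e-09 and 3.76e-07). Of 10 other HSP70 and HSP110 genes, which include HSPA9, 3 rose in each genotype, with 2 lower in control and 1 lower in targeted spheroids. HSPA4L, a further HSP110, rose by 0.74 and 0.47 (adjusted p 2.01e-08 and 1.65e-05) where HSPH1 did not rise. Of 12 J-domain genes, 4 rose and 5 fell in control spheroids and 3 rose and 3 fell in targeted spheroids; DNAJC2, a ribosome-bound member, rose by 0.58 and 0.43 (adjusted p 1.64e-05 and 0.000627). Of 7 exchange factors and ubiquitin links of HSP70, 3 rose and 3 fell in control spheroids, and 2 rose and 4 fell in targeted spheroids. BAG3, which couples HSP70 to autophagy, fell by 0.56 and 0.53 (adjusted p 7.04e-09 and 2.64e-08). BAG3 was higher in targeted than in control spheroids both in droplets (0.19, adjusted p 0.014) and at 24 h (0.21, adjusted p 0.00372). On the same list BAG1 changed by -0.71 and -0.32 (adjusted p 2.05e-09 and 0.000163) and BAG2 by 0.54 and 0.41 (adjusted p 2.5e-06 and 0.000131). Only 2 of 9 other small heat shock protein genes had enough counts to test, and HSPB11, which despite its symbol belongs to the intraflagellar transport machinery, rose by 0.32 in control spheroids (adjusted p 0.000866).

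Of 5 heat shock factors and regulators, 4 rose and 1 fell at 24 h in each genotype. HSF1, the factor that drives the heat shock response, rose from 84.9 ± 0.767 to 104.9 ± 3.29 CPM in control spheroids (log2 fold change 0.31, adjusted p 5.33e-05) and by 0.26 in targeted spheroids (adjusted p 0.000379), and its messenger RNA level does not report the activity of the protein. Of 13 tested genes on a list of further HSF1-induced genes, 5 rose and 4 fell in control spheroids, and 5 rose and 5 fell in targeted spheroids, with medians of -0.047 and -0.086. Set against control spheroids, 2 of the 13 were higher in targeted spheroids at 24 h and 1 was lower; at 48 h the counts were 6 and 1. Of all genes 13.7% were higher and 15.7% lower at 24 h, and 14.4% and 15.1% at 48 h. Of the ER chaperones, 10 of 12 fell in control and 12 of 12 in targeted spheroids at 24 h, with medians of -0.51 and -0.7. HSP90B1, the HSP90 of the endoplasmic reticulum, went from 2551.2 ± 279 to 1643 ± 164 CPM in control spheroids (log2 fold change -0.63, adjusted p 3.32e-06). The 12 lists, immediate-early genes included, share 8 genes that are each on 2 of them, BAG3, CHORDC1, FKBP4 and HSPA4L among those named, and against droplets at 24 h the shares of all genes higher and lower were 27.8% and 28.7% in control and 25.5% and 25.7% in targeted spheroids.

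**Figure D4:**
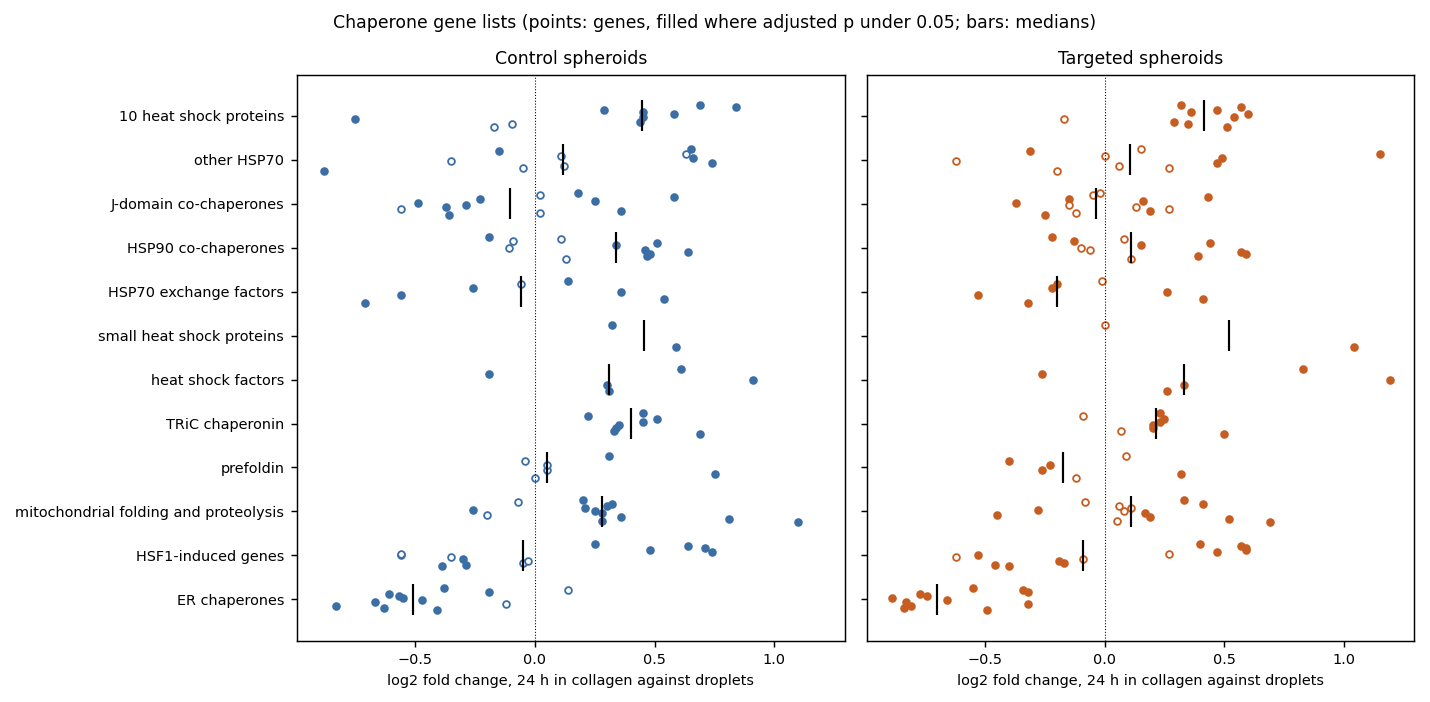
Log2 fold change at 24 h in collagen against droplets for each tested gene of 11 chaperone lists and the 10 heat shock proteins, in control (left) and targeted (right) spheroids; filled points passed the test and black bars mark medians. TRiC subunits lie to the right of 0 in control spheroids with a median of 0.4, and ER chaperones lie mostly to the left with medians of -0.51 and -0.7.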

How the data were processed

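RNA-seq counts from 18 spheroid libraries were analysed. The authors deposited estimated counts per gene from RSEM (1.3.3), and per the submitters' processing notes the tools also included cutadapt 2.3, FastQC 0.11.8, STAR 2.7.8a, MultiQC 1.7 and DESeq2 1.42.0 with build GRCh38; the annotation release and strand setting were not stated. The deposited expected counts were already whole numbers. Of 62714 rows, 4 reporter rows that name no gene were left out. Genes were filtered with filterByExpr (minimum count 10), scaled with TMM and fitted with edgeR 4.0.16 (limma 3.58.1, R 4.3.3), 1 coefficient per group over 18 libraries, using the robust quasi-likelihood test with Benjamini-Hochberg adjustment over 17030 genes and a threshold of 0.05. The SE is the size of the log2 fold change divided by the root of F, and intervals are 95% intervals. The fit was tested on simulated counts. Alternatives were DESeq2 size factors and its Wald test, library size alone, no filter, a replicate block, only the compared groups, HSPA1A and HSPA1B as 1 summed row, and leaving out each library. Gene lengths, overlaps and shared sequence come from GENCODE on GRCh38, and promoter windows from RefSeq. The 10 genes and the lists were chosen with earlier results of these data known. Named besides them were up to 3 called genes per list and comparison with the largest change and at least 5 CPM in the higher group, and the 5 genes with the highest correlation with HSPA1A, HSPA8 and HSPD1, 1 of which is not reported here. Libraries held 19819401 to 33352163 counts, and the lowest count of the 10 genes was 1198.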

Additional observations from a re-analysis of the deposited data

Results flagged for a closer look

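A set of 4 results stood out because the change from droplets to collagen differed between control and targeted spheroids in a test of that difference. For HSPA1A the difference, targeted minus control, was 0.69 on the log2 scale at 24 h and 0.49 at 48 h, and for HSPA1B it was 0.44 at 24 h and 0.38 at 48 h. Both times share the droplet libraries, and reads of the 2 genes cannot be fully separated, so these are not 4 independent results. Summed into 1 row, the gene pair gave 0.51 at 24 h (edgeR adjusted p 0.00404) and 0.41 at 48 h (adjusted p 0.0148).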

How the results depend on the processing

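No member reversed direction past the threshold under any alternative: of 3096 values compared with the 120 reported, 45 changed sign, all uncalled under both settings. The number of members called in droplets between genotypes, 0 as reported, was 1 with library size alone, 2 without the filter, 2 with only the compared groups, 1 with DESeq2 and 0 to 1 on leaving out each library (HSPA1A lower without control droplet replicate 3, HSPD1 higher without targeted droplet replicate 2, and HSPB1 higher without targeted 24 h replicate 1 or 2 or control 48 h replicate 3). With the replicate block it was 1 (HSPD1), and the block also added HSPD1 to the differences between genotypes at 24 h and 48 h (adjusted p 0.0254 and 0.0244) and DNAJB1 to the fall from 24 h to 48 h in control spheroids (0.0468). It changed no other call of a member. The mean log2 level of each group was subtracted, and same-numbered libraries of different groups then correlated at -0.0701 to 0.137 over 45 pairs. The 2 above 0.1 were replicate 3 of control and targeted droplets (0.137) and replicate 1 of control 24 h and 48 h (0.115). The numbers were therefore not taken as pairs. The difference between genotypes in the change at 24 h, 2 members as reported, gave 5 without the filter, 1 with the summed row (which holds 1 gene fewer) and 2 to 4 on leaving out each library. At 48 h, also 2, it gave 5 without the filter, 1 with the summed row and 0 to 5 on leaving out each library, with 0 without control droplet replicate 1 or targeted droplet replicate 3 and 5 without control droplet replicate 3. Leaving out each library gave 5 to 7 and 4 to 7 members between genotypes at 24 h and 48 h, 8 to 10 and 9 to 9 in collagen against droplets for control, 9 to 9 and 5 to 6 for targeted spheroids, and 2 to 3 from 24 h to 48 h in each genotype. Over all genes the difference at 24 h gave 1262 calls, 2046 without the filter and 414 to 1953 on leaving out each library; at 48 h it gave 1156, 2110, 1838 with the replicate block and 316 to 1977. From 24 h to 48 h in targeted spheroids 648 genes were called, 1101 without the filter and 324 to 854 on leaving out each library. Control spheroids gave 2248 calls for that step and 1349 to 2529 on leaving out each library, and the genotypes in droplets 2964 and 1959 to 3298. DESeq2 gave 1739 for the difference at 48 h. The difference from 24 h to 48 h gave 0, 240 without the filter and 5 in DESeq2. The causes were not tested.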
